A study of Mus musculus with 96 samples.

Results

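The 32 genes described here are a set of macrophage genes and chemokines: 4 chemokines, the chemokine receptors Ccr2 and Cx3cr1, surface receptors and antigens of the lineage, Fc receptors with their adaptor chains, complement C1q, scavenger receptors, and lysosomal or secreted products. They were taken by symbol from the deposited tables of both tissues, and all 32 were found among 22632 gene symbols in sciatic nerve (SCN) and 20940 in gastrocnemius muscle (GASTROC). Messenger RNA was sequenced from whole tissue of male C57BL/6J mice that were bought at 11 weeks of age, housed 1 per cage and placed on a regimen at 12 weeks. All tissue was collected at 26 weeks.

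Mice on the standard diet (SD) received 10% of calories as fat throughout, mice on the high-fat diet (HFD) 60%, from lard, and mice on the ketogenic diet (KD) 90%, from cocoa butter. The other 4 regimens began with HFD and turned at 18 weeks: to SD (DR), to KD (KDI), to HFD with a voluntary running wheel (EX), or to KD with a wheel (KDI_EX). Nerve had 6 SD and 6 HFD libraries and 7 of each other regimen, 47 in all. Muscle had 8 SD and 6 KDI_EX libraries and 7 of each other regimen, 49 in all. The labels do not say which mouse a library came from, so p-values measure the spread between libraries.

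Macrophages reside in the endoneurium and epineurium of peripheral nerve and between muscle fibres, where they clear debris and lipid. The growth factor receptor encoded by Csf1r keeps them alive, and chemokines such as CCL2 draw CCR2-bearing monocytes from blood to replace or add to them. In obese adipose tissue, macrophages that carry CD11c, the product of Itgax, accumulate around dying adipocytes. The tissues here were measured whole, so fewer macrophages and less RNA per macrophage cannot be told apart.

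Values are the authors' deposited log2 expression values, in a separate table for each tissue. Whether they account for gene length is not stated, so levels are compared neither between genes nor between tissues. A level is given as the median of a group's libraries, with the lowest and highest library in brackets. A difference is the log2 difference of group means from limma, fitted over all tested genes of a tissue, ± its standard error, with a p-value adjusted over those genes. Genes were tested if they reached log2 of 10 in at least 6 libraries, which left 17226 genes in nerve and 15748 in muscle. All 32 members passed this in both tissues, and each of them reached log2 of 10 in every library.

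Nerve libraries carried the myelin gene Mbp at a group mean of at least 18.50, and muscle libraries carried Ckm and Acta1 at a group mean of at least 18.62; Ckm in nerve ran from 6.94 to 13.75. The nerve libraries EX replicate 5 and KDI_EX replicate 7 stood over 4 median absolute deviations from the rest on a principal component, and their mean centred level of 18 skeletal muscle markers was 4.19 and 4.17. Without them the median difference of the members in nerve was 0.08 in EX vs HFD, 0.11 with them, and 0.33 in KDI_EX vs KDI, 0.34 with them. Of the T cell markers 6 of 10 passed the filter in nerve and 3 of 10 in muscle, and of the neutrophil markers 2 passed in each tissue. Single libraries set many of the extremes of the macrophage genes. In nerve, SD replicate 5 was the highest library for 13 members and EX replicate 6 the lowest for 15. In muscle, SD replicate 1 was the highest for 18 members and DR replicate 1 the lowest for 27, and DR replicate 1 also had the lowest library median (6.89) and a mean centred fibroblast marker level of -1.18. The part of such marker levels in the results was not tested.

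Over 22 comparisons, 11 in each tissue, limma called 0 of the 32 genes at an adjusted p under 0.05. Of all tested genes at most 0.318% were called in a comparison. Group means are therefore given as a description. In nerve, KDI had the lowest of the 7 group means for 29 of 32 members, against 12.97% of all tested genes, and EX had the highest for 20, against 16.2%. The 3 members outside this were Itgax, lowest in KD, Gpnmb, lowest in DR, and Spp1, lowest in KDI_EX. In muscle, KDI had the highest mean for 18 members, against 13.03% of all genes, and DR had the lowest for 23, against 9.68%. The DR count includes DR replicate 1, the lowest library for most members, and was not recomputed without it. Without that library 12 members were below SD in muscle DR, against 30 with it. Below HFD the count stayed at 30 or 31 with any single library left out. The regimen with the lowest macrophage gene levels in nerve was thus the one most often highest in muscle; no test was made of that difference between tissues. Many members varied together from library to library, so counts of members are not counts of independent observations.

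**Figure D1:**
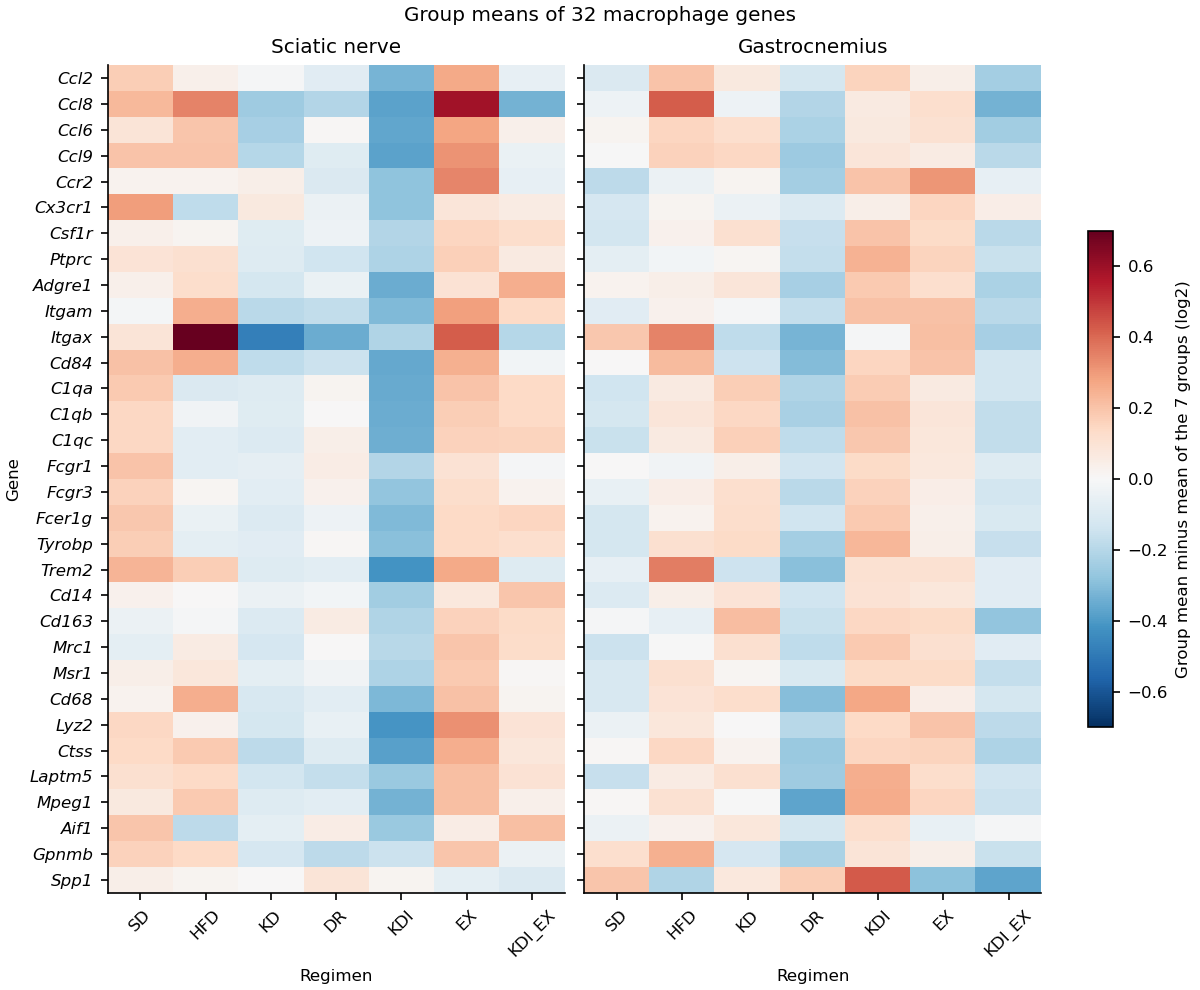
Group means of the 32 genes in sciatic nerve (left) and gastrocnemius (right), each shown as the log2 difference from the mean of the gene's 7 group means; rows are genes ordered by role and columns are regimens. The KDI column holds the lowest mean of 29 genes in nerve and the highest of 18 in muscle, where the DR column holds the lowest of 23. The muscle DR means include DR replicate 1, the lowest library for most members.

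The mean of the 32 genes, each centred on its own average over the libraries of a tissue, summarises a library's macrophage signal. In nerve this score was -0.28 ± 0.11 in KDI (SD, n = 7), with libraries from -0.42 to -0.16, and 0.21 ± 0.39 in EX (n = 7), with libraries from -0.53 to 0.60. The 7 KDI libraries were close together: the median over members of the within-group SD was 0.15 in KDI and 0.28 to 0.48 in the other nerve groups, and KDI had the smallest SD of the 7 groups for 24 of 32 members, against 17.9% of all genes. In muscle the score was 0.16 ± 0.22 in KDI (n = 7) and -0.20 ± 0.51 in DR (n = 7), where DR replicate 1 stood at -1.09. KDI had the smallest within-group SD in muscle too, for 23 of 32 members, against 14.75% of all genes. Scores of the SD libraries in muscle ran from -0.53 to 1.07, and all 7 groups overlapped in both tissues.

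**Figure D2:**
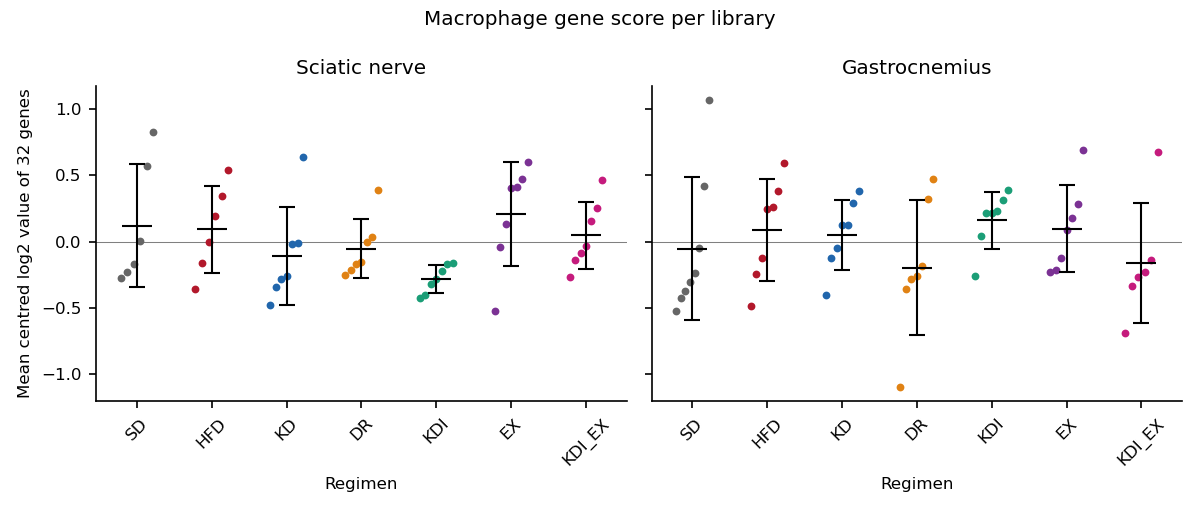
Mean centred log2 value of the 32 genes for each library (points) by regimen, with the group mean and SD (black), in sciatic nerve (left) and gastrocnemius (right). The KDI libraries in nerve lie between -0.42 and -0.16, and the range of every other nerve group overlaps theirs.

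The largest differences of any member in nerve belonged to Itgax, the CD11c integrin chain. In the unswitched diets its nerve levels were 6.31 in SD (5.66 to 7.78), 7.34 in HFD (6.21 to 7.91) and 5.88 in KD (5.40 to 7.26). In the switched regimens they were 6.17 in DR (5.78 to 6.66), 6.29 in KDI (5.84 to 6.70), 7.09 in EX (5.99 to 7.43) and 6.31 in KDI_EX (5.89 to 6.49). HFD and EX had the highest medians and SD was spread widely, while DR, KDI and KDI_EX stayed at or below 6.70 and overlapped the lower part of HFD.

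Against HFD, Itgax in nerve differed by -1.20 ± 0.29 (adjusted p = 0.105) in KD and by -1.07 ± 0.29 (adjusted p = 0.420) in DR, from limma. By the same fit the difference was -0.94 ± 0.29 (adjusted p = 0.857) in KDI, -0.93 ± 0.29 (adjusted p = 0.448) in KDI_EX and -0.30 ± 0.29 (adjusted p = 0.799) in EX. All 7 DR, all 7 KDI and all 7 KDI_EX libraries lay under the HFD mean, and so did 6 of 7 KD libraries. The exception, KD replicate 3, stood at 7.26, and without it the KD difference from HFD was -1.41 with a limma adjusted p of 0.0293. Leaving out HFD replicate 2 or HFD replicate 3 instead gave -1.40 and -1.33, with limma adjusted p of 0.0320 and 0.0278. Over all 13 single libraries left out, the limma adjusted p ran from 0.0278 to 0.630 in KD and from 0.163 to 0.988 in DR. With adipocyte and skeletal muscle marker scores in the fit, limma called Itgax in both KD (-1.16, adjusted p = 0.0189) and DR (-1.20, adjusted p = 0.0206). That fit called 157 and 182 of all tested genes. Over the 9 alternatives other than single libraries left out, the limma adjusted p reached 0.635 in KD and 0.530 in DR. HFD itself was above SD by 0.64 ± 0.30 (adjusted p = 0.257), with 4 of 6 HFD libraries above the SD mean, and KD differed from SD by -0.57 ± 0.29 (adjusted p = 0.822), or -0.33 without SD replicate 4. The EX difference was -0.16 with library quality weights or without HFD replicate 4, -0.50 with marker scores as covariates or without HFD replicate 2, -0.17 without HFD replicate 6 and -0.15 without EX replicate 6. These comparisons share the HFD libraries and are not independent of each other.

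In muscle the Itgax levels were 4.91 in SD (4.57 to 6.96), 5.44 in HFD (4.98 to 5.87) and 4.82 in KD (4.59 to 5.12) in the unswitched diets. The switched regimens had 4.72 in DR (4.35 to 4.85), 5.04 in KDI (4.62 to 5.32), 5.24 in EX (5.08 to 5.37) and 4.70 in KDI_EX (4.46 to 5.26). Every DR library lay below every HFD library. Among the comparisons made, this was the only one in which the 2 groups did not overlap for a member. Of all muscle genes, 0.0445% were lower in DR than in HFD without overlap. The EX libraries (5.08 to 5.37) also lay above all DR libraries (4.35 to 4.85), but EX and DR were not compared. The limma differences from HFD in muscle were -0.68 ± 0.20 (adjusted p = 0.541) in DR, -0.58 ± 0.21 (adjusted p = 0.454) in KDI_EX and -0.53 ± 0.20 (adjusted p = 0.542) in KD. KDI differed from HFD by -0.36 ± 0.20 (adjusted p = 1.0) and EX by -0.14 ± 0.20 (adjusted p = 0.996). The HFD mean was above the SD mean by 0.16 ± 0.20 (adjusted p = 0.797), and DR differed from SD by -0.52 ± 0.20 (adjusted p = 1.0). The SD library replicate 1 reached 6.96, above all libraries of every other regimen. KD differed from SD by -0.37 ± 0.20 (adjusted p = 0.507) in limma. These differences moved when single libraries were left out or the fit was changed. HFD vs SD was 0.39 with library quality weights, 0.07 with marker scores as covariates or without SD replicate 5 or without SD replicate 7, 0.41 without SD replicate 1, 0.25 without SD replicate 6 and 0.08 without HFD replicate 3. DR vs SD was -0.27 with library quality weights or without SD replicate 1, and KD vs SD was -0.14 with library quality weights and -0.12 without SD replicate 1. EX vs HFD was -0.09 without HFD replicate 1 and -0.05 without HFD replicate 3. With adipocyte and Schwann cell marker scores as covariates the difference from HFD was -0.33 in KD and -0.32 in KDI_EX.

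**Figure D3:**
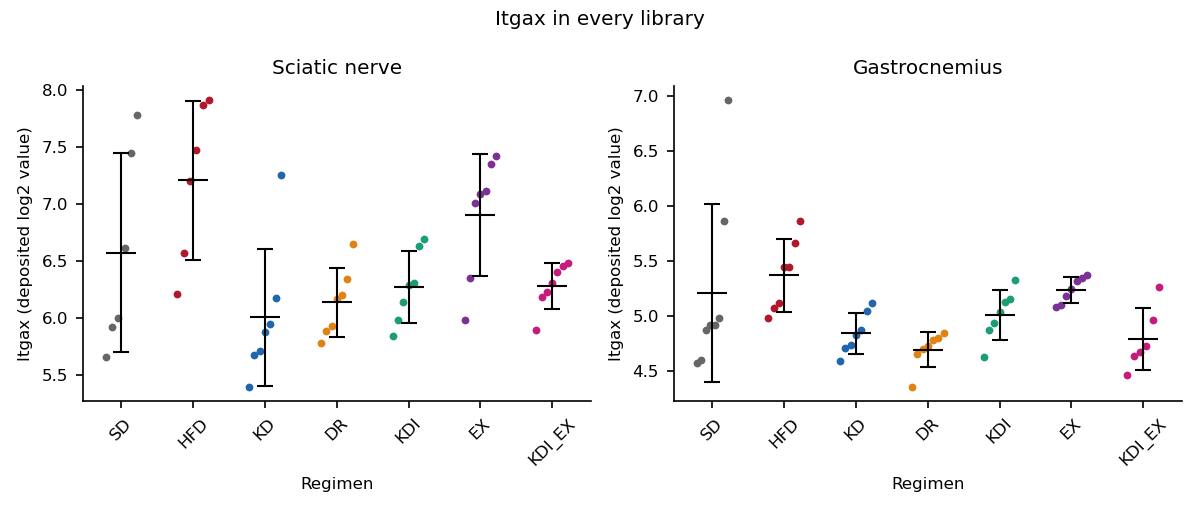
Deposited log2 value of Itgax in every library (points) by regimen, with the group mean and SD (black), in sciatic nerve (left) and gastrocnemius (right). In muscle the DR libraries (4.35 to 4.85) all lie below the HFD libraries (4.98 to 5.87); in nerve 1 KD library at 7.26 lies apart from the rest of its group.

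Itgam encodes CD11b, the integrin chain next to Itgax on chromosome 7 (Itgam from 128062640 to 128118491 and Itgax from 128129547 to 128150657, both on the plus strand of GRCm38). In nerve its levels were 8.46 in HFD (8.14 to 9.21), 7.92 in KD (7.78 to 8.84), 8.16 in DR (7.91 to 8.34) and 7.92 in KDI (7.81 to 8.37). Its differences from HFD were -0.44 ± 0.24 (adjusted p = 0.935) in KD and -0.43 ± 0.24 (adjusted p = 0.691) in DR, from limma, and all 7 DR libraries lay under the HFD mean. KDI had the lowest group mean of Itgam in nerve, further below HFD than KD and DR. Its limma unadjusted p against HFD was under 0.05, and Itgam was not called. In muscle the group means of Itgam spanned 0.40, from KDI_EX to KDI, against 0.68 for Itgax, from DR to HFD. The interaction of wheel and diet, which asks whether the wheel's difference on KD is unlike that on HFD, was 0.42 ± 0.34 (adjusted p = 1.0) for Itgam in nerve and -0.57 ± 0.37 (adjusted p = 1.0) in muscle, by limma. In nerve it was 0.22 with library quality weights and 0.26 without KDI_EX replicate 1, and in muscle -0.29 with marker scores as covariates. The stretches around the RefSeq starts of the neighbours, 250 bases before and 50 after the start (GRCm38.p6), are shown because their differences from HFD were unequal in size. Capitals mark GAGGAA on either strand (TTCCTC when on the reverse), a short form of sites bound by PU.1, the transcription factor that macrophages need to form; the longer form GAGGAAGT holds the shorter one. The Itgam stretch is chr7:128062390-128062689 on the plus strand and the Itgax stretch is chr7:128129300-128129599 on the plus strand.

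Itgam: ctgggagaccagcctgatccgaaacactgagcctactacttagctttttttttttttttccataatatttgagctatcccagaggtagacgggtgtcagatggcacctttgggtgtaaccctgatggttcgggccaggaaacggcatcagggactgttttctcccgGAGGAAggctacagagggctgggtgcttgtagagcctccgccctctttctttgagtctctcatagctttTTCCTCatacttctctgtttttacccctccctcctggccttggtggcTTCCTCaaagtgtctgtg
Itgax: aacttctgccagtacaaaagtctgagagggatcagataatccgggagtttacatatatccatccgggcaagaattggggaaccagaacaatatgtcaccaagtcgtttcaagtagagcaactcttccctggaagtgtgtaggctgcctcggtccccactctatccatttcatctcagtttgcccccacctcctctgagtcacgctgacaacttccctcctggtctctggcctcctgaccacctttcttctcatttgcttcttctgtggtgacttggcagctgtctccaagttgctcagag

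Itgam held 3 matches and Itgax none; their longest run of identical bases was 10. RefSeq start regions were found for 25 of the 32 members, some with more than 1 start. GAGGAA lay in the region of 15 of these 25 genes (60%), and in 31.3% of 27025 mouse genes with such regions. GAGGAAGT was present for 3 of 25 genes (12%), C1qc, Ctss and Spp1, and for 3.69% of all genes. A match is a description of the letters in this window, and the absence of one says nothing about PU.1.

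Ccl2 encodes the ligand that recruits monocytes through CCR2. Its levels in nerve were 7.91 in SD (7.60 to 8.14), 7.82 in HFD (7.40 to 7.99) and 7.77 in KD (7.29 to 8.22) and, in the switched regimens, 7.65 in DR (7.45 to 7.89), 7.44 in KDI (7.11 to 7.69), 8.14 in EX (7.45 to 8.45) and 7.65 in KDI_EX (7.32 to 8.13). KDI was lowest and EX highest by median, and their ranges overlapped between 7.45 and 7.69. Against HFD the EX difference was 0.23 ± 0.15 (adjusted p = 0.721), and against SD the DR difference was -0.25 ± 0.15 (adjusted p = 0.581), both from limma; all 7 DR libraries lay under the SD mean. The EX difference was 0.38 with library quality weights.

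In muscle Ccl2 levels were 5.45 in SD (4.99 to 6.37), 5.75 in HFD (5.31 to 6.47) and 5.46 in KD (5.28 to 6.20), and after the switch 5.58 in DR (4.96 to 6.03), 5.83 in KDI (5.35 to 5.97), 5.60 in EX (5.35 to 6.01) and 5.38 in KDI_EX (4.80 to 5.88). There KDI_EX had the lowest median. Its difference from HFD was -0.44 ± 0.19 (adjusted p = 0.640) and from KDI -0.40 ± 0.19 (adjusted p = 0.977) by limma, with 5 of 6 KDI_EX libraries below the mean of the other group in each case. HFD exceeded SD by 0.30 ± 0.17 (adjusted p = 0.631), or by 0.19 without HFD replicate 2, and the ranges of all these groups overlapped. EX differed from HFD by -0.16 ± 0.18 (adjusted p = 0.996) in limma, or by -0.08 with library quality weights, -0.04 without HFD replicate 2 and -0.24 without HFD replicate 5.

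Ccr2, the receptor for CCL2 on inflammatory monocytes, had its highest group mean in EX in both tissues. Nerve levels were 9.69 in SD (9.38 to 10.77), 9.78 in HFD (9.55 to 10.03) and 9.65 in KD (9.58 to 10.63), then 9.61 in DR (9.54 to 10.07), 9.61 in KDI (9.21 to 9.78), 10.14 in EX (9.53 to 10.54) and 9.77 in KDI_EX (9.36 to 10.07) in the switched regimens. The EX difference from HFD was 0.32 ± 0.17 (adjusted p = 0.704) in nerve and 0.35 ± 0.21 (adjusted p = 0.996) in muscle, from limma, with 6 of 7 and 5 of 7 EX libraries above the HFD mean. Muscle levels were 8.33 in SD (8.08 to 9.44), 8.88 in HFD (8.35 to 9.07) and 8.76 in KD (8.27 to 9.18), then 8.52 in DR (7.65 to 9.04), 9.07 in KDI (8.54 to 9.13), 9.0 in EX (8.47 to 9.99) and 8.59 in KDI_EX (8.25 to 9.41). All groups overlapped, and in nerve SD replicate 5 (10.77) and KD replicate 3 (10.63) stood above the rest of their groups. The interaction of wheel and diet for Ccr2 in muscle was -0.61 ± 0.31 (adjusted p = 1.0), and the muscle EX difference from HFD was 0.20 without EX replicate 5.

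Ccl8, a further ligand of monocyte and T cell receptors, had the widest span of group means in nerve after Itgax (0.96). Its nerve levels were 5.15 in SD (4.95 to 7.13), 5.56 in HFD (4.68 to 6.68), 4.91 in KD (4.66 to 6.07), 4.94 in KDI (4.64 to 5.07), 5.71 in EX (4.94 to 7.05) and 4.88 in KDI_EX (4.53 to 5.58). The limma difference from HFD was -0.68 ± 0.33 (adjusted p = 0.865) in KDI_EX, -0.60 ± 0.33 (adjusted p = 0.935) in KD and -0.55 ± 0.33 (adjusted p = 0.701) in DR. KDI had the lowest group mean, so it lay further below HFD than these regimens. Its limma unadjusted p against HFD was under 0.05, and it was not called. HFD and EX libraries reached 6.68 and 7.05, and KDI libraries stayed at or below 5.07. The DR difference was -0.36 without HFD replicate 4 and -0.34 without HFD replicate 5, and the KD difference -0.39 without HFD replicate 5.

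In muscle the Ccl8 levels were 4.73 in SD (4.50 to 6.74), 5.67 in HFD (4.71 to 6.28) and 5.03 in KD (4.65 to 5.96), then 4.62 in DR (4.45 to 6.18), 5.10 in KDI (4.94 to 5.66), 5.27 in EX (4.72 to 5.56) and 4.64 in KDI_EX (4.47 to 5.59). The muscle differences from HFD were -0.76 ± 0.27 (adjusted p = 0.449) in KDI_EX and -0.63 ± 0.26 (adjusted p = 0.875) in DR; HFD differed from SD by 0.46 ± 0.25 (adjusted p = 0.618). KD, KDI and EX differed from HFD by -0.46 ± 0.26 (adjusted p = 0.927), -0.36 ± 0.26 (adjusted p = 1.0) and -0.30 ± 0.26 (adjusted p = 0.996), all in limma. With adipocyte and Schwann cell marker scores as covariates, the difference from HFD was -0.34 in KDI_EX, -0.33 in DR and -0.02 in KD. For KDI it was -0.21 with library quality weights and -0.24 without HFD replicate 4, and for EX -0.20 with library quality weights and -0.18 without HFD replicate 4. HFD vs SD was 0.20 with marker scores as covariates and 0.70 without SD replicate 1. Ccl8 lies beside the similar Ccl12, and how reads were divided between them was not stated.

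Ccl6 and Ccl9 encode related chemokines of myeloid cells that bind CCR1, and lie side by side on the minus strand of chromosome 11 (Ccl9 from 83572919 to 83578636 and Ccl6 from 83587882 to 83593087). Nerve levels of Ccl9 were 9.67 in SD (9.51 to 10.83), 9.95 in HFD (9.34 to 10.62), 9.37 in KDI (9.11 to 9.72) and 10.09 in EX (9.46 to 10.54). Its difference from HFD in KDI was -0.57 ± 0.23 (adjusted p = 1.0), with all 7 KDI libraries under the HFD mean, and KD differed from SD by -0.40 ± 0.23 (adjusted p = 0.822), both by limma; the KD difference was -0.23 without SD replicate 4. For Ccl6 the nerve levels were 10.09 in SD (9.84 to 11.11), 10.42 in HFD (9.72 to 11.15), 9.83 in KD (9.63 to 10.79), 9.95 in KDI (9.59 to 10.21) and 10.43 in EX (9.95 to 11.14). KDI had the lowest group mean of Ccl6 and KD the lowest median, and the ranges overlapped.

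The neighbours varied together from library to library. After the group means were subtracted, Pearson's r between Ccl6 and Ccl9 was 0.955 in nerve (n = 47, rho = 0.938) and 0.980 in muscle (n = 49, rho = 0.969). Each had an adjusted permutation p of 1.33e-05, from 1e-05, the smallest that 100000 resamples can give, over 20 relations. Without the 2 libraries farthest from the median of Ccl6, r was 0.954 and 0.976. Such values were not particular to neighbours: Tyrobp on chromosome 7 and Fcer1g on chromosome 1 had r = 0.950 in both tissues. The RefSeq start regions of Ccl6 (chr11:83593038-83593337 on the minus strand) and Ccl9 (chr11:83578587-83578886 on the minus strand) are shown because the genes varied together; neither holds GAGGAA, and their longest run of identical bases was 13.

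Ccl6: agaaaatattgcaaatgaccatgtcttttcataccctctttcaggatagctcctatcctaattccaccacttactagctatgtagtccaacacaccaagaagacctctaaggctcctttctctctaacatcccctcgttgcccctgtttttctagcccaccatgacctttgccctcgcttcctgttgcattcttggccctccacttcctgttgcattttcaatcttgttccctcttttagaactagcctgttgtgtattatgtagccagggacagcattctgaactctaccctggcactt
Ccl9: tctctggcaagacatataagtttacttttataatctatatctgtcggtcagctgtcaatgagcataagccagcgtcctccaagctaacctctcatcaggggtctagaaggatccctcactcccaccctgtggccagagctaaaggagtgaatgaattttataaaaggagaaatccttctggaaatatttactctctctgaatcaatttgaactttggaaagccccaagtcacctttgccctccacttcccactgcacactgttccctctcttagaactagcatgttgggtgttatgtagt

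The ligand and its receptor had a lower correlation. For Ccl2 and Ccr2, r was 0.368 in nerve (rho = 0.335, adjusted permutation p = 0.0119 and 0.0263, n = 47) and 0.645 in muscle (rho = 0.632, adjusted permutation p = 1.33e-05 and 1.33e-05, n = 49). Without the 2 libraries farthest from the median of Ccl2 these became 0.303 and 0.622. For Ccl2 and Ccl8, r was 0.166 in nerve (rho = 0.0839, adjusted permutation p = 0.279 and 0.574, n = 47) and 0.548 in muscle (rho = 0.475, adjusted permutation p = 6.25e-05 and 0.000612, n = 49), and 0.0916 and 0.437 without 2 libraries. No test compared the correlations of different pairs.

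**Figure D4:**
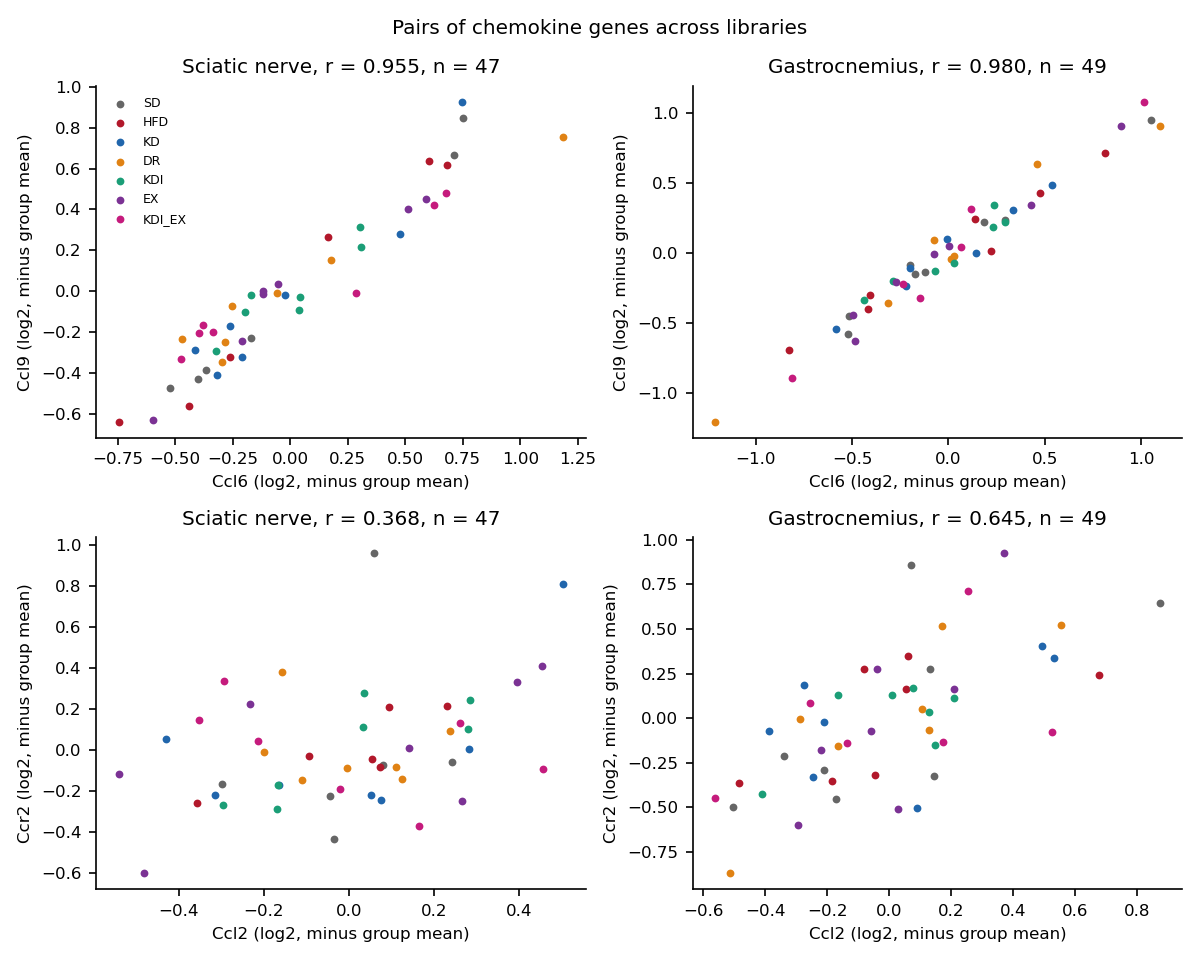
Ccl6 against Ccl9 (top) and Ccl2 against Ccr2 (bottom), as log2 values minus the mean of the library's regimen, in sciatic nerve (left) and gastrocnemius (right); each point is 1 library, coloured by regimen. Ccl6 and Ccl9 lie along a line (r = 0.955 and 0.980), Ccl2 and Ccr2 scatter more (r = 0.368 and 0.645).

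Cx3cr1, the fractalkine receptor of resident macrophages and patrolling monocytes, was the member furthest below SD on HFD in nerve. Its nerve levels were 9.17 in SD (8.90 to 9.77), 8.65 in HFD (8.45 to 9.37), 9.01 in KD (8.55 to 9.82), 8.92 in DR (8.71 to 9.16) and 8.61 in KDI (8.38 to 9.21). The HFD difference from SD was -0.47 ± 0.20 (adjusted p = 0.228) by limma, with 5 of 6 HFD libraries under the SD mean, and DR differed from SD by -0.33 ± 0.20 (adjusted p = 0.573). With library quality weights the HFD difference was -0.58 and its adjusted p 0.0267, a setting under which 3787 genes were called. EX differed from HFD by 0.26 ± 0.20 (adjusted p = 0.744) in limma, or by 0.47 with library quality weights and 0.11 without EX replicate 4. In muscle its group means spanned 0.26.

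Adgre1 encodes the adhesion receptor that serves as the classical surface antigen of mouse macrophages. Nerve levels were 9.66 in SD (9.02 to 10.67), 9.99 in HFD (9.34 to 10.29) and 9.62 in KD (9.33 to 10.29), then 9.73 in DR (9.41 to 10.26), 9.39 in KDI (9.35 to 9.57), 10.05 in EX (8.96 to 10.40) and 9.68 in KDI_EX (9.40 to 11.80). KDI libraries lay between 9.35 and 9.57 and KDI_EX libraries were spread over the widest range, in which KDI_EX replicate 1 stood at 11.80 and the next library at 10.23. KDI_EX exceeded KDI by 0.60 ± 0.26 (adjusted p = 0.998) by limma, with 6 of 7 libraries above the KDI mean, and by 0.31 without KDI_EX replicate 1. Muscle levels were 8.46 in SD (7.98 to 10.51), 8.73 in HFD (7.99 to 9.48) and 8.98 in KD (8.29 to 9.12), then 8.36 in DR (7.29 to 9.32), 8.94 in KDI (8.38 to 9.20), 8.79 in EX (8.25 to 9.47) and 8.53 in KDI_EX (7.91 to 9.41), and all groups overlapped.

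Cd68, a lysosomal glycoprotein of macrophages, had nerve levels of 9.01 in SD (8.75 to 9.98), 9.54 in HFD (8.88 to 9.86) and 8.91 in KD (8.59 to 9.97), and 8.98 in DR (8.79 to 9.84), 8.90 in KDI (8.74 to 8.94), 9.66 in EX (8.48 to 9.87) and 9.24 in KDI_EX (8.88 to 9.48) after the switch. Every KDI library lay under the HFD mean, and the difference was -0.57 ± 0.22 (adjusted p = 1.0) from limma. The interaction of wheel and diet in nerve was 0.38 ± 0.31 (adjusted p = 1.0) by limma, or 0.11 with library quality weights and 0.23 without EX replicate 6. Muscle levels were 7.68 in SD (7.40 to 9.41), 8.25 in HFD (7.58 to 8.61) and 8.23 in KD (7.63 to 8.49), then 7.71 in DR (6.64 to 8.49), 8.36 in KDI (7.94 to 8.61), 8.02 in EX (7.75 to 8.71) and 7.81 in KDI_EX (7.38 to 8.87). There all 7 KDI libraries lay above the DR mean, by a mean of 0.57 ± 0.24 (adjusted p = 0.638), and DR replicate 1, at 6.64, was the lowest of all muscle libraries.

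Csf1r, the receptor for the macrophage growth factors CSF1 and IL-34, had levels of 11.17 in HFD (10.75 to 11.66), 10.93 in KDI (10.86 to 11.06), 11.42 in EX (10.56 to 11.66) and 11.12 in KDI_EX (10.84 to 11.90) in nerve and of 10.65 in HFD (9.97 to 11.32), 10.39 in DR (9.42 to 11.18), 10.82 in KDI (10.45 to 11.08) and 10.26 in KDI_EX (9.92 to 11.33) in muscle. It followed the order of Cd68 across libraries, with r = 0.858 in nerve (rho = 0.866, n = 47) and 0.940 in muscle (rho = 0.946, n = 49), each with an adjusted permutation p of 1.33e-05, and 0.852 and 0.931 without 2 libraries. The ligands passed the test in no comparison: the smallest unadjusted p belonged to Csf1 in nerve KDI_EX vs HFD, with 0.19 ± 0.09 (limma adjusted p = 0.832), and to Il34 in nerve KDI vs DR, with 0.11 ± 0.06 (limma adjusted p = 0.865).

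Ptprc, the pan-leukocyte antigen CD45, had nerve levels of 9.13 in HFD (8.51 to 9.56), 8.82 in DR (8.73 to 9.07), 8.81 in KDI (8.60 to 9.05) and 9.20 in EX (8.42 to 9.65) and a span of group means of 0.38. In muscle KDI_EX differed from KDI by -0.40 ± 0.22 (adjusted p = 0.977) from limma, and the interaction of wheel and diet was -0.58 ± 0.31 (adjusted p = 1.0). KDI differed from HFD by 0.27 ± 0.21 (adjusted p = 1.0) in limma. The first of these was -0.21 with marker scores as covariates, and KDI vs HFD was 0.41 with library quality weights and 0.16 without KDI replicate 7.

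Cd84, a receptor of the SLAM family on myeloid and lymphoid cells, differed from HFD in nerve by -0.61 ± 0.22 (adjusted p = 1.0) in KDI and -0.43 ± 0.22 (adjusted p = 0.914) in KD. All 7 KDI libraries and 6 of 7 KD libraries lay under the HFD mean; in KD, replicate 3 stood at 9.12 and the next library at 8.14. Cd84 levels in nerve were 8.19 in SD (7.96 to 9.27), 8.67 in HFD (7.73 to 9.05), 8.06 in KD (7.69 to 9.12), 8.04 in DR (7.86 to 8.44), 7.99 in KDI (7.59 to 8.22) and 8.78 in EX (7.51 to 9.08). By limma DR differed from HFD by -0.40 ± 0.22 (adjusted p = 0.674) and from SD by -0.36 ± 0.22 (adjusted p = 0.595), and KD from SD by -0.39 ± 0.22 (adjusted p = 0.822). DR vs SD was -0.21 without SD replicate 4 and -0.20 without SD replicate 5, and KD vs SD was -0.23 without SD replicate 4 or without SD replicate 5. In muscle its levels were 6.24 in SD (5.95 to 8.27), 6.89 in HFD (6.27 to 7.22), 6.56 in KD (5.96 to 6.66), 6.22 in DR (5.47 to 6.89) and 6.83 in KDI (6.26 to 7.11), and the limma difference from HFD was -0.53 ± 0.23 (adjusted p = 0.922) in DR and -0.37 ± 0.23 (adjusted p = 0.964) in KD, the latter -0.21 with marker scores as covariates. DR differed from SD by -0.31 ± 0.23 (adjusted p = 1.0) in limma, or by -0.07 with library quality weights or without SD replicate 1 and -0.17 without DR replicate 1.

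C1qa, C1qb and C1qc encode the chains of complement C1q, made in tissue largely by macrophages, and form a cluster on the minus strand of chromosome 4 (C1qb from 136880129, C1qc from 136889804, C1qa up to 136898803). Nerve levels of C1qa were 11.01 in SD (10.58 to 11.80), 10.74 in HFD (10.39 to 11.67) and 10.76 in KD (10.34 to 11.59), then 10.84 in DR (10.61 to 11.70), 10.56 in KDI (10.45 to 10.76), 11.28 in EX (10.36 to 11.51) and 10.98 in KDI_EX (10.66 to 11.63). KDI libraries ended at 10.76, under the medians of SD, DR, EX and KDI_EX. KDI_EX exceeded KDI by 0.49 ± 0.20 (adjusted p = 0.998) for C1qa and by 0.50 ± 0.20 (adjusted p = 0.998) for C1qc in limma, with all 7 KDI_EX libraries above the KDI mean for both. KDI differed from DR by -0.37 ± 0.20 (adjusted p = 0.865) for C1qa and -0.38 ± 0.20 (adjusted p = 0.865) for C1qc, with all 7 KDI libraries under the DR mean; without DR replicate 2 these were -0.25 and -0.25. For C1qa, EX differed from HFD by 0.30 ± 0.21 (adjusted p = 0.730) in limma, or by 0.55 with library quality weights and 0.47 without HFD replicate 5.

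In muscle the C1qa levels were 10.09 in SD (9.75 to 10.98), 10.59 in HFD (9.76 to 10.96) and 10.46 in KD (9.82 to 11.07), then 10.02 in DR (8.89 to 10.90), 10.54 in KDI (10.05 to 10.92), 10.30 in EX (9.89 to 11.19) and 10.02 in KDI_EX (9.53 to 11.47), with KDI highest by mean. Differences of KD from SD were 0.32 ± 0.23 (adjusted p = 0.614) for C1qc and 0.31 ± 0.25 (adjusted p = 0.645) for C1qa by limma. The 3 chains varied together across libraries. Between C1qa and C1qb r was 0.989 in nerve (rho = 0.982, n = 47) and 0.990 in muscle (rho = 0.986, n = 49), and between C1qa and C1qc 0.987 (rho = 0.977) and 0.994 (rho = 0.989), each with an adjusted permutation p of 1.33e-05. Without the 2 farthest libraries the lowest of these 4 values was 0.984. The RefSeq start regions of C1qb (chr4:136886151-136886450 on the minus strand) and C1qc (chr4:136892865-136893164 on the minus strand) are shown for these genes that varied together; capitals mark GAGGAA on either strand, within GAGGAAGT in C1qc.

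C1qb: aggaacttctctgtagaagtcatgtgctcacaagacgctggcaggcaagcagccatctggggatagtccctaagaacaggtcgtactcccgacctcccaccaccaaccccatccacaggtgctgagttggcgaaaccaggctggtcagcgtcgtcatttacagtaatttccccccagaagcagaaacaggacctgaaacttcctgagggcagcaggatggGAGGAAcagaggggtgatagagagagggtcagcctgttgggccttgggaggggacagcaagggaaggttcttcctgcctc
C1qc: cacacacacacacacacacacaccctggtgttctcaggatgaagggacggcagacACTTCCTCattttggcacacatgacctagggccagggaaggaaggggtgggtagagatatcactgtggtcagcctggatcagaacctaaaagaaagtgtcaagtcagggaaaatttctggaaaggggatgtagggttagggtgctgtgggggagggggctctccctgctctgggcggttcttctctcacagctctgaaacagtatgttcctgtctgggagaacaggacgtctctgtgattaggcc

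Fcer1g and Tyrobp encode the adaptor chains, FcRγ and DAP12, through which many activating myeloid receptors signal. They varied together with r = 0.950 in both tissues (rho = 0.914 in nerve, n = 47, and 0.932 in muscle, n = 49; adjusted permutation p = 1.33e-05 for all). Fcer1g with Fcgr3, a receptor that uses it, had r = 0.864 in nerve (rho = 0.883) and 0.935 in muscle (rho = 0.897), with the same adjusted permutation p. In nerve, without HFD replicate 5 and KDI_EX replicate 1, that r was 0.924. Tyrobp levels in nerve were 9.39 in SD (8.93 to 10.16), 9.21 in HFD (8.81 to 10.09), 9.09 in KDI (8.79 to 9.37), 9.59 in EX (8.59 to 9.89) and 9.27 in KDI_EX (9.24 to 10.29). KDI_EX replicate 1 stood at 10.29 and the next library of that group at 9.48.

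Tyrobp in muscle was 8.30 in HFD (7.52 to 8.84), 7.70 in DR (7.01 to 8.50), 8.34 in KDI (7.78 to 8.61) and 7.82 in KDI_EX (7.20 to 9.01). KDI exceeded DR by 0.47 ± 0.22 (adjusted p = 0.659), with 6 of 7 KDI libraries above the DR mean, and KDI_EX differed from KDI by -0.39 ± 0.23 (adjusted p = 0.977), both from limma. The latter was -0.59 with library quality weights, -0.19 with marker scores as covariates, -0.25 without KDI_EX replicate 1 and -0.61 without KDI_EX replicate 6. The Fc receptors Fcgr1 and Fcgr3, which bind IgG, differed between KDI and DR in nerve by -0.26 ± 0.15 (adjusted p = 0.865) and -0.31 ± 0.16 (adjusted p = 0.865), with all 7 KDI libraries under the DR mean for both; that of Fcgr3 was -0.20 without DR replicate 2. Fcgr1 in nerve differed from SD by -0.28 ± 0.16 (adjusted p = 0.346) on HFD and by -0.26 ± 0.15 (adjusted p = 0.822) on KD, and without SD replicate 5 by -0.18 and -0.17. Fcgr1 levels in nerve were 7.35 in SD (7.03 to 7.88), 7.09 in HFD (6.71 to 7.64), 7.22 in DR (6.90 to 7.63) and 7.01 in KDI (6.77 to 7.15), and Fcgr3 levels were 9.78 in SD (9.55 to 10.38), 9.73 in HFD (9.36 to 10.29), 9.67 in DR (9.46 to 10.37) and 9.55 in KDI (9.17 to 9.59). In muscle Fcgr3 had 8.94 in HFD (8.32 to 9.67), 8.61 in DR (7.62 to 9.54) and 9.11 in KDI (8.59 to 9.38), with the groups overlapping. Fcer1g was at 8.99 in SD (8.75 to 9.72), 8.67 in KDI (8.42 to 8.80) and 8.95 in KDI_EX (8.72 to 10.22) in nerve and at 7.66 in DR (6.77 to 8.46), 8.11 in KDI (7.60 to 8.42) and 7.62 in KDI_EX (7.20 to 8.78) in muscle. Fcgr3 shares sequence with Fcgr2b, so the split of reads between them is uncertain.

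Trem2 encodes a lipid-sensing receptor that signals through DAP12 and is typical of lipid-associated macrophages. Nerve levels were 7.75 in SD (7.40 to 9.27), 8.04 in HFD (7.59 to 8.66) and 7.59 in KD (7.16 to 9.12), then 7.63 in DR (7.35 to 8.36), 7.38 in KDI (7.13 to 7.91), 8.19 in EX (7.03 to 8.99) and 7.67 in KDI_EX (7.50 to 8.28). KDI had the lowest median and the lowest mean, KD replicate 3 (9.12) stood apart from its group, and all groups overlapped. In muscle the levels were 4.86 in SD (4.70 to 6.73), 5.75 in HFD (4.97 to 6.00) and 5.01 in KD (4.83 to 5.43), then 4.86 in DR (4.54 to 5.29), 5.33 in KDI (5.15 to 5.72), 5.29 in EX (4.94 to 5.85) and 4.91 in KDI_EX (4.73 to 6.22). HFD had the highest median and mean in muscle. Its difference from SD was 0.42 ± 0.22 (adjusted p = 0.587) in limma, and the differences from HFD were -0.65 ± 0.22 (adjusted p = 0.665) in DR, -0.50 ± 0.22 (adjusted p = 0.738) in KD, -0.44 ± 0.23 (adjusted p = 0.790) in KDI_EX and -0.26 ± 0.22 (adjusted p = 0.996) in EX. All 7 DR and all 7 KD libraries lay under the HFD mean. HFD vs SD was 0.64 without SD replicate 1, and KDI_EX vs HFD -0.23 with marker scores as covariates. Trem2 and Tyrobp had r = 0.814 in nerve (rho = 0.805, n = 47) and 0.831 in muscle (rho = 0.811, n = 49), each with an adjusted permutation p of 1.33e-05, and 0.777 and 0.759 without 2 libraries.

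Cd163, the haemoglobin scavenger receptor, and Mrc1, the mannose receptor, mark resident macrophages. Cd163 levels in nerve were 10.97 in HFD (10.64 to 11.53), 10.81 in KDI (10.63 to 11.02), 11.28 in EX (10.35 to 11.39) and 10.96 in KDI_EX (10.48 to 12.09), and in muscle 10.43 in SD (10.06 to 11.47), 10.96 in KD (10.08 to 11.22), 10.48 in DR (9.47 to 11.36) and 10.25 in KDI_EX (9.81 to 10.91). KD had its highest muscle group mean and KDI_EX its lowest, and the interaction of wheel and diet was -0.61 ± 0.35 (adjusted p = 1.0) by limma, or -0.36 with marker scores as covariates. Mrc1 levels were 11.13 in HFD (10.73 to 11.46), 10.87 in KDI (10.73 to 11.02) and 11.29 in EX (10.56 to 11.61) in nerve and 10.44 in HFD (9.86 to 11.22), 10.30 in DR (9.43 to 11.14) and 10.84 in KDI (10.21 to 11.08) in muscle. Msr1, a scavenger receptor for modified lipoprotein, spanned 0.40 over the nerve group means and 0.30 over those of muscle, with HFD above SD in muscle by 0.22 ± 0.19 (adjusted p = 0.727) from limma, or by 0.35 without SD replicate 1 and 0.13 without HFD replicate 4. Its levels were 7.55 in HFD (7.08 to 7.75), 7.15 in KDI (6.98 to 7.32) and 7.73 in EX (6.86 to 7.89) in nerve and 6.44 in SD (6.18 to 7.38), 6.76 in HFD (6.28 to 7.32), 6.89 in EX (6.27 to 7.18) and 6.48 in KDI_EX (6.04 to 7.10) in muscle.

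Cd14, the lipopolysaccharide co-receptor, had the smallest unadjusted p of any member between KDI_EX and KDI in nerve. Its levels there were 8.64 in HFD (8.43 to 9.26), 8.42 in KDI (8.34 to 8.56), 8.83 in EX (8.27 to 9.03) and 8.67 in KDI_EX (8.45 to 9.46). All 7 KDI_EX libraries exceeded the KDI mean, by 0.44 ± 0.14 (adjusted p = 0.998) from limma, although the ranges met between 8.45 and 8.56. The interaction of wheel and diet for Cd14 was 0.37 ± 0.21 (adjusted p = 1.0) in limma, or 0.15 with library quality weights.

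Among lysosomal and effector genes, Lyz2 (lysozyme) ran from 12.95 in KDI (12.73 to 13.19) to 13.81 in EX (12.81 to 14.26) in nerve, with a span of group means of 0.74. Its close copy Lyz1 makes the division of reads between them uncertain. Ctss, a cysteine protease of antigen processing, had nerve levels of 10.87 in HFD (10.03 to 11.26), 10.19 in KDI (9.97 to 10.46) and 11.03 in EX (9.81 to 11.52). Mpeg1, a pore-forming protein of phagocytes, had nerve levels of 11.31 in HFD (10.60 to 11.45), 10.64 in KDI (10.54 to 10.85) and 11.33 in EX (10.20 to 12.05) and muscle levels of 9.21 in HFD (8.28 to 9.55), 8.61 in DR (7.69 to 9.17) and 9.17 in KDI (8.76 to 9.50). In muscle KDI exceeded DR by 0.63 ± 0.25 (adjusted p = 0.615), with all 7 KDI libraries above the DR mean. Laptm5, a lysosomal membrane protein of blood cells, showed 0.50 ± 0.23 (adjusted p = 0.652) in that comparison, again with all 7 libraries above, both from limma, and 0.32 without DR replicate 1. Mpeg1 in DR differed from SD by -0.38 ± 0.25 (adjusted p = 1.0) in limma, or by -0.15 with library quality weights, -0.14 without SD replicate 1 and -0.23 without DR replicate 1. Laptm5 on KD differed from SD by 0.27 ± 0.22 (adjusted p = 0.649) in limma, or by 0.41 with library quality weights. Laptm5 levels were 10.20 in HFD (9.68 to 10.68), 9.76 in KDI (9.66 to 9.93) and 10.37 in EX (9.43 to 10.77) in nerve and 9.59 in HFD (8.77 to 9.92), 9.03 in DR (8.08 to 9.81) and 9.69 in KDI (9.18 to 9.97) in muscle.

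Aif1, the calcium-binding protein IBA1, differed from SD on HFD in nerve by -0.38 ± 0.24 (adjusted p = 0.382). KDI_EX differed from HFD by 0.40 ± 0.23 (adjusted p = 0.922), both by limma. In KDI_EX, replicate 1 stood at 9.60 and the next library at 7.66; that difference was 0.71 with library quality weights and 0.09 without KDI_EX replicate 1. Aif1 levels in nerve were 7.67 in SD (7.34 to 8.16), 7.25 in HFD (7.01 to 7.91), 7.30 in KDI (6.97 to 7.59) and 7.64 in EX (7.08 to 8.04), and muscle levels were 5.46 in SD (5.33 to 6.46), 5.62 in HFD (5.23 to 6.18), 5.33 in DR (4.75 to 6.17) and 5.70 in KDI (5.33 to 6.28).

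Gpnmb and Spp1 (osteopontin) encode glycoproteins of lipid-laden macrophages, but Spp1 is also made by Schwann cells and Gpnmb by other cells. In nerve Spp1 was 14.98 in SD (14.90 to 15.11), 14.97 in HFD (14.86 to 15.10), 14.92 in KD (14.82 to 15.20), 15.05 in DR (14.97 to 15.13), 14.94 in KDI (14.76 to 15.20), 14.99 in EX (14.50 to 15.02) and 14.93 in KDI_EX (14.51 to 15.12), with group means spanning 0.20. In muscle it was 7.53 in SD (7.19 to 9.54), 7.31 in HFD (7.08 to 7.81), 7.81 in KDI (6.93 to 10.37), 7.14 in EX (6.58 to 8.13) and 7.01 in KDI_EX (6.36 to 8.95), with group means spanning 0.80. The muscle difference was 0.64 ± 0.38 (adjusted p = 1.0) between KDI and HFD and -0.80 ± 0.39 (adjusted p = 0.977) between KDI_EX and KDI, from limma. KDI replicate 7, at 10.37 with the next at 8.19, set the upper end of the KDI group. Without it the differences were 0.24 and -0.41. That library also had the highest mean centred marker levels of the muscle libraries for neutrophils (5.92), erythrocytes (2.75) and proliferation (1.64), whose part was not tested. In nerve Spp1 in KDI_EX differed from HFD by -0.12 ± 0.08 (adjusted p = 0.966) in limma, or by -0.06 without EX replicate 5 and KDI_EX replicate 7 together or without KDI_EX replicate 7 and -0.07 without KDI_EX replicate 6.

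Gpnmb levels were 10.81 in SD (10.62 to 12.12), 11.20 in HFD (10.86 to 11.27), 10.76 in DR (10.47 to 11.26), 10.87 in KDI (10.58 to 10.99) and 10.97 in EX (10.65 to 11.76) in nerve and 7.74 in SD (7.53 to 10.42), 8.48 in HFD (7.38 to 8.75), 8.01 in KD (7.54 to 8.21), 7.88 in DR (7.32 to 8.50) and 8.03 in KDI (7.53 to 8.72) in muscle. DR differed from SD by -0.35 ± 0.20 (adjusted p = 0.557) in nerve and by -0.34 ± 0.26 (adjusted p = 1.0) in muscle, by limma. The nerve difference was -0.21 without SD replicate 4 and -0.15 without SD replicate 5, and the muscle difference -0.07 with library quality weights and -0.01 without SD replicate 1. Between Gpnmb and Spp1, r was 0.0951 in nerve (rho = 0.102, adjusted permutation p = 0.53 and 0.518, n = 47) and 0.252 in muscle (rho = 0.303, adjusted permutation p = 0.0903 and 0.0387, n = 49); without 2 libraries r was 0.118 and 0.269.

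Counts of members on each side of 0 are set beside all tested genes, of which 47.1% to 53.2% were higher in any comparison, with medians from -0.01 to 0.01. Because many members varied together, a count near 32 can reflect 1 shared shift rather than many separate ones. Between HFD and SD in nerve, the comparison of the high-fat with the standard diet, 15 of 32 members were above and 17 below. Their median difference was -0.01 and lay between -0.08 and 0.14 with single libraries left out. By limma, 0 of 32 were called (all genes 0.0%) and 2 had an unadjusted p under 0.05 (all genes 18.2%): Itgax above and Cx3cr1 below. In muscle 29 members were higher on HFD, with a median of 0.14, while 0 of 32 were called (all genes 0.0191%) and 0 had an unadjusted p under 0.05 (all genes 8.68%). Without SD replicate 1, the library with the highest macrophage score, the muscle median was 0.31, and it was 0.08 without SD replicate 7, 0.06 without HFD replicate 4, 0.26 without HFD replicate 5 and 0.22 without SD replicate 6.

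On the ketogenic diet from the start, 31 of 32 members in nerve were below SD, with a median of -0.24, and by limma 0 of 32 were called (all genes 0.00581%) and 0 had an unadjusted p under 0.05 (all genes 5.28%). The median was -0.09 without SD replicate 5, -0.16 without SD replicate 4 or KD replicate 4, and -0.36 without KD replicate 3. Against HFD 27 were lower, with a median of -0.15; 0 of 32 were called (all genes 0.0348%) and 1 had an unadjusted p under 0.05, lower (all genes 3.27%), Itgax, and the median ran from -0.23 without KD replicate 3 to -0.06 without HFD replicate 5. In muscle 26 members were above SD, with a median of 0.12 (0.28 without SD replicate 1), and 0 of 32 were called (all genes 0.197%) and 0 had an unadjusted p under 0.05 (all genes 10.2%). Against HFD 18 were above and 14 below in muscle, with a median of 0.03 that lay between -0.06 and 0.11 with single libraries left out, and 0 of 32 were called (all genes 0.318%) and 2 had an unadjusted p under 0.05, lower (all genes 3.3%), Itgax and Trem2.

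The return to standard diet was followed in nerve by a median of -0.11 against HFD (-0.18 without HFD replicate 2 and -0.05 without HFD replicate 5), with 21 of 32 members lower; by limma 0 of 32 were called (all genes 0.0%) and 1 had an unadjusted p under 0.05, lower (all genes 3.4%), Itgax. Against SD, 29 were lower with a median of -0.15, and 0 of 32 were called (all genes 0.0%) and 0 had an unadjusted p under 0.05 (all genes 9.9%); without SD replicate 5 this median was -0.01, and without SD replicate 2 it was -0.25. In muscle 31 members were below HFD with a median of -0.27, and 0 of 32 were called (all genes 0.0254%) and 4 had an unadjusted p under 0.05, lower (all genes 2.08%): Itgax, Trem2, Ccl8 and Cd84. The median was -0.07 without DR replicate 1 and -0.16 without HFD replicate 4. There 9 of 10 fibroblast markers were lower too, with a median of -0.22, and all 16 Schwann cell and myelin genes higher, with a median of 0.44; their part was not tested. Against SD the muscle median was -0.11, and 0.04 without DR replicate 1 or 0.03 without SD replicate 1; 0 of 32 were called (all genes 0.0%) and 1 had an unadjusted p under 0.05, lower (all genes 0.749%), Itgax.

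The switch from HFD to KD had members lower in nerve and higher in muscle. Compared with mice kept on HFD, 31 of 32 members were lower in KDI, with a median of -0.32; by limma 0 of 32 were called (all genes 0.0232%) and 11 had an unadjusted p under 0.05, lower (all genes 2.69%). These 11 were Itgax, Itgam, Cd84, Cd68, Ctss, Mpeg1, Trem2, Ccl2, Ccl6, Ccl8 and Ccl9. The median lay between -0.39 and -0.28 with any single library left out. Compared with DR, which shares the HFD phase, 30 members were lower with a median of -0.25, while 0 of 32 were called (all genes 0.00581%) and 0 had an unadjusted p under 0.05 (all genes 5.43%). In the same nerves all 10 fibroblast markers were below HFD, with a median of -0.14, all 12 genes of a complement list were below, with a median of -0.22, and all 16 myelin genes were above, with a median of 0.05. Fibroblast marker scores ranged from -0.42 to 0.02 in KDI and from -0.16 to 0.26 in HFD; their part in the macrophage values was not tested.

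In muscle the same switch had 24 of 32 members above HFD, with a median of 0.12, and 0 of 32 were called (all genes 0.0318%) and 0 had an unadjusted p under 0.05 (all genes 2.62%). That median ran from 0.01 without HFD replicate 5 to 0.22 without HFD replicate 4. Against DR all 32 were higher in muscle, with a median of 0.36, and 0 of 32 were called (all genes 0.0508%) and 5 had an unadjusted p under 0.05, higher (all genes 3.68%): Mpeg1, Cd68, Laptm5, Tyrobp and Ccr2; without DR replicate 1 the median was 0.20. All 10 fibroblast markers were higher there too, with a median of 0.42, as were all 7 MHC class II genes, with a median of 0.37, and 16 of 18 adipocyte markers, while 15 of 16 Schwann cell and myelin genes were lower. Fibroblast scores ranged from -1.18 to 0.42 in DR and from -0.21 to 0.57 in KDI, and what they contribute was not tested. Cd68, Mpeg1, Ctss, Csf1r, C1qb and Ccl8 were among the members with KDI below DR in nerve and above it in muscle.

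**Figure D5:**
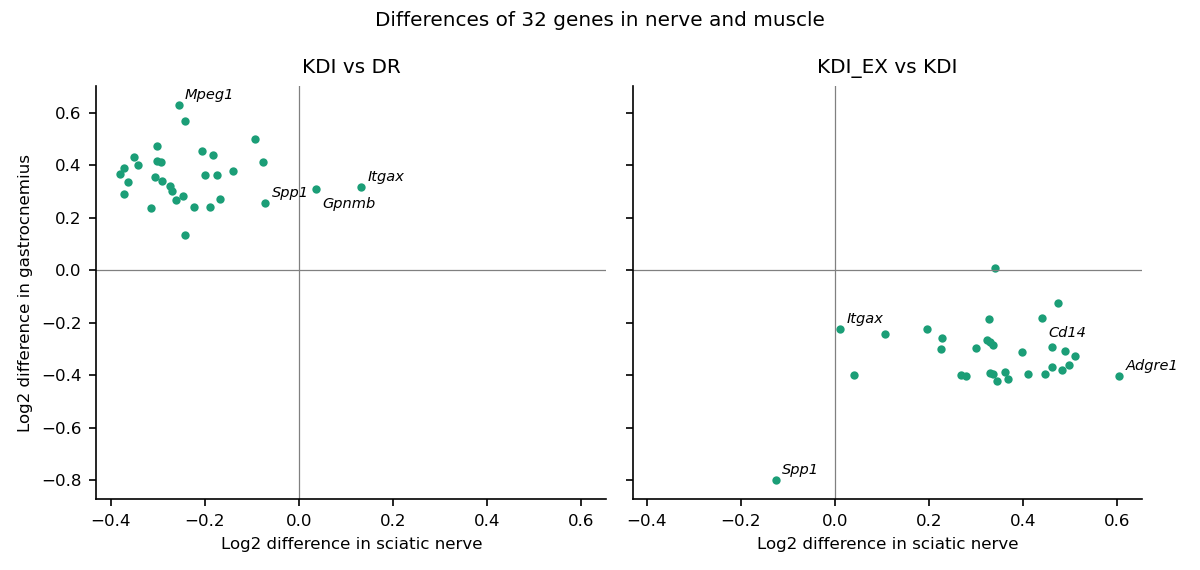
Log2 difference of each of the 32 genes (points) in sciatic nerve (horizontal axis) and gastrocnemius (vertical axis) for KDI vs DR (left) and KDI_EX vs KDI (right); grey lines mark 0. Most genes lie at upper left for KDI vs DR and at lower right for KDI_EX vs KDI, and none was called in either tissue.

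Wheel running on HFD had no member called. In nerve 27 of 32 were higher, with a median of 0.11, and 0 of 32 were called (all genes 0.0%) and 0 had an unadjusted p under 0.05 (all genes 7.17%); without EX replicate 6, the lowest library for 15 members, the median was 0.25, and without HFD replicate 2 it was 0.04. In muscle 19 were higher and 13 lower, with a median of 0.01 that lay between -0.11 and 0.11 with single libraries left out, and 0 of 32 were called (all genes 0.0%) and 0 had an unadjusted p under 0.05 (all genes 2.02%).

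Adding the wheel to the ketogenic switch went with higher values in nerve and lower values in muscle. In nerve KDI_EX was above KDI for 31 of 32 members, with a median of 0.34 that lay between 0.29 and 0.41 with any library left out; by limma 0 of 32 were called (all genes 0.0%) and 8 had an unadjusted p under 0.05, higher (all genes 2.53%). These 8 were C1qa, C1qb, C1qc, Cd14, Adgre1, Aif1, Fcer1g and Lyz2. KDI_EX replicate 1 was the highest nerve library for C1qb, C1qc, Cd14, Adgre1, Aif1 and Fcer1g. Without it the difference was 0.31 for Adgre1, against 0.60 with it, and 0.34 for Cd14, against 0.44. All 10 fibroblast markers were higher as well, with a median of 0.18, and all 16 myelin genes lower, with a median of -0.17, a pattern whose part was not tested. In muscle KDI_EX was below KDI for 31 of 32, with a median of -0.32; 0 of 32 were called (all genes 0.0%) and 2 had an unadjusted p under 0.05, lower (all genes 2.14%), Ccl2 and Spp1. That median was -0.52 without KDI_EX replicate 6, -0.22 without KDI_EX replicate 1 and -0.12 with adipocyte and Schwann cell marker scores in the fit. All 10 fibroblast markers were lower in muscle, with a median of -0.18, and 16 of 18 adipocyte markers, with a median of -0.49.

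Set against HFD, KDI_EX had 17 members lower and 15 higher in nerve, with a median of -0.04 that lay between -0.12 and 0.03 with single libraries left out, and 0 of 32 were called (all genes 0.0697%) and 2 had an unadjusted p under 0.05, lower (all genes 2.44%), Itgax and Ccl8. In muscle 31 were lower, with a median of -0.23; 0 of 32 were called (all genes 0.108%) and 3 had an unadjusted p under 0.05, lower (all genes 2.91%): Ccl8, Itgax and Ccl2. That muscle median was -0.03 with the marker scores in the fit, -0.12 without KDI_EX replicate 1 and -0.43 without KDI_EX replicate 6. It was -0.13 without HFD replicate 4. The interaction of wheel and diet was positive for 29 members in nerve, with a median of 0.22 (0.09 without EX replicate 6, 0.11 without HFD replicate 5), where 0 of 32 were called (all genes 0.0%) and 0 had an unadjusted p under 0.05 (all genes 2.1%). It was negative for 31 members in muscle, with a median of -0.32. The muscle median was -0.53 without KDI_EX replicate 6. Without KDI_EX replicate 1 it was -0.24, and 27 members were negative. By limma 0 of 32 were called in muscle (all genes 0.0%) and 0 had an unadjusted p under 0.05 (all genes 3.31%). For Adgre1 in nerve the interaction was 0.63 ± 0.37 (adjusted p = 1.0) by limma, or 0.33 without KDI_EX replicate 1. Comparisons with HFD, with SD and with KDI each reuse the same libraries.

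Of 21 further gene lists chosen around macrophages and the other cell types of these tissues, limma called 4 gene and comparison pairs, and none was a macrophage surface gene or chemokine. Mmp12, the macrophage elastase and a gene of the lipid-associated list, fell by 1.85 on the log2 scale in muscle on KD against HFD (SE 0.44, limma adjusted p = 0.0433), with group means of 3.89 and 5.75 and all 7 KD libraries under the HFD mean. Lep, the adipocyte hormone leptin, fell by 2.50 in the same comparison (SE 0.49, limma adjusted p = 0.00738), and also in muscle KDI_EX against HFD. Cfd, the adipocyte complement factor adipsin, rose in nerve in KDI_EX against HFD by 1.40 (limma adjusted p = 0.0424). In the lists of other chemokines, chemokine receptors, Fc receptor and DAP12 genes, resident macrophage genes, inflammatory cytokines and MHC class II genes, 0 genes were called in the 22 comparisons.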

How the data were processed

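RNA from sciatic nerve and gastrocnemius was extracted with TRIzol and prepared with an NEBNext Ultra kit, per the labels' protocols, which do not say whether strand was kept. The authors deposited 1 table of log2 expression values per tissue; the transform behind them and the depth are not given in the sources used here. Per the submitters' processing notes, the build was GRCm38 and the tools included STAR 2.7.8a and RSEM 1.3.3 as well as DESeq2, cutadapt 2.3, MultiQC 1.7 and FastQC 0.11.8; their roles are not stated.

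Libraries were grouped by the regimen in their labels. Each tissue was fitted once over its 7 groups with limma 3.58.1 (R 4.3.3, statmod 1.5.0, trended and robust prior), on genes that reached log2 of 10 in 6 or more libraries. Tests were two-sided, with Benjamini-Hochberg adjustment over all tested genes of a comparison, and a call at an adjusted p under 0.05. The code was tested on simulated data. The 10 pairs of members were correlated after subtracting group means, with 100000 permutations (scipy 1.17.1, numpy 2.4.6, pandas 2.3.3). The most similar 2 libraries of a tissue correlated at 0.999257 in nerve and 0.998957 in muscle, and no 2 were identical.

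Differences are given for the 4 members with the smallest unadjusted p in each comparison. Itgax is also given in HFD vs SD and in every comparison of a regimen with HFD. Ccl2, Ccr2, Itgax, Trem2, Cd68 and Adgre1 are given by level in every regimen of both tissues. Other members are given by level, and a difference that is not printed need not be small. The members and gene lists were chosen with earlier results of these data known. Gene positions are from GENCODE M21 (GRCm38) and start regions from RefSeq (GRCm38.p6), which held 25 of the 32 members. Alternatives changed the filter, the scaling, the groups in the fit, library weights, the prior, marker covariates and the libraries included.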

Additional observations from a re-analysis of the deposited data

Results flagged for a closer look

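Values are listed for 2 reasons. A library was listed when its gap to the nearest library of its group, relative to the group's whole range, passed Dixon's 95% critical value for that group size. Chance flags about 1 in 20 groups: over the 25 members named with full values, 39 of 350 sets of a gene and group were listed, and over all 32 members 51 of 448. Each value below is a log2 level with the nearest library of its group in brackets.

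In nerve, KD replicate 3 stood apart for Itgax at 7.26 (6.17), Trem2 at 9.12 (7.79), Ccr2 at 10.63 (9.88), Ccl8 at 6.07 (5.20), Ptprc at 9.62 (9.04), Mpeg1 at 12.06 (11.03), Gpnmb at 11.55 (10.82) and Cd84 at 9.12 (8.14). KDI_EX replicate 1 stood apart for Adgre1 at 11.80 (10.23), Tyrobp at 10.29 (9.48) and Aif1 at 9.60 (7.66). DR replicate 2 stood apart for C1qa at 11.70 (11.04) and C1qc at 11.66 (10.93). EX replicate 6 stood apart for Cd163 at 10.35 (11.15) and Tyrobp at 8.59 (9.35). SD replicate 5 stood apart for Ccr2 at 10.77 (9.76) and Ccl8 at 7.13 (5.71). EX replicate 5 stood apart for Spp1 at 14.50 (14.82). HFD replicate 5 stood apart for Cd14 at 9.26 (8.70). KD replicate 1 stood apart for Cd163 at 11.58 (10.96).

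In muscle, SD replicate 1 stood apart for Tyrobp at 9.02 (8.16), Ccl2 at 6.37 (5.64), Ccl8 at 6.74 (5.44), Aif1 at 6.46 (5.56) and Gpnmb at 10.42 (8.80). KDI_EX replicate 6 stood apart for Cd14 at 8.41 (7.45), Fcgr1 at 6.52 (5.60) and Mpeg1 at 9.79 (8.76). DR replicate 1 stood apart for Itgax at 4.35 (4.65) and Cx3cr1 at 4.56 (5.08). KD replicate 3 stood apart for Cd14 at 7.01 (7.51) and Cd84 at 5.96 (6.43). DR replicate 5 stood apart for Ccl8 at 6.18 (5.11). EX replicate 5 stood apart for Mpeg1 at 9.86 (9.21). KD replicate 7 stood apart for Ccl8 at 5.96 (5.16). KDI replicate 1 stood apart for Tyrobp at 7.78 (8.31). KDI replicate 3 stood apart for Trem2 at 5.72 (5.35). KDI replicate 7 stood apart for Spp1 at 10.37 (8.19). SD replicate 6 stood apart for Spp1 at 9.54 (8.13).

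For 6 members every KDI library lay on one side of the DR mean in nerve and on the other side in muscle. The log2 difference of KDI from DR in nerve, with that in muscle in brackets, was -0.35 (0.43) for C1qb, -0.17 (0.27) for Ccl8, -0.24 (0.57) for Cd68, -0.17 (0.36) for Csf1r, -0.29 (0.41) for Ctss and -0.26 (0.63) for Mpeg1. The difference between tissues was not tested, and limma called none of these values. The share of all tested genes with this pattern was not computed. DR replicate 1 was the lowest muscle library for C1qb, Cd68, Csf1r, Ctss and Mpeg1, and the pattern was not recomputed without it. Without that library the muscle difference was 0.39 for Cd68 and 0.48 for Mpeg1.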

How the results depend on the processing

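Every number of members called was 0 in the reported fits and stayed 0 in 505 of 513 recomputed counts. Library quality weights called 1 member in nerve HFD vs SD (Cx3cr1), 1 in nerve KD vs HFD (Itgax, -1.27, limma adjusted p = 0.0378) and 1 in nerve EX vs HFD (C1qa, 0.55, limma adjusted p = 0.0485). Of the 17226 tested nerve genes, these weights called 3787 in HFD vs SD, 48 in KD vs HFD and 857 in EX vs HFD. Marker scores as covariates called 1, Itgax, in nerve KD vs HFD and 1, Itgax, in nerve DR vs HFD. Those fits called 157 and 182 of all tested genes. With single libraries left out, the count in nerve KD vs HFD ran from 0 to 1, always Itgax; with only the groups compared in the fit its limma adjusted p was 0.635. Itgax was called there without HFD replicate 2, HFD replicate 3 or KD replicate 3, where 17, 75 and 9 of all tested genes were called. The cause was not tested. Of 91 named differences, 54 moved by over 1.5 times under at least 1 alternative and 0 changed sign; those values stand beside them in the report. With library quality weights the median of the members was 0.32 in nerve EX vs HFD, 0.02 in the nerve interaction, 0.01 in muscle DR vs SD and -0.62 in the muscle interaction. Muscle Itgax did not pass the stricter filter on low values and has no value there. No paired analysis was possible because no label ties a library to a mouse or to another library. Depth is unknown, since the deposited values hold no counts, and the spread between libraries, with a median within-group SD of 0.15 to 0.56 over members, limits what 6 to 8 libraries a group can show.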
